A study of Mus musculus with 12 samples.

Results

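Avpr1a encodes the V1a vasopressin receptor. Its row in the table of high-fat diet against chow was taken by symbol, and it is 1 gene among the 336 listed there. It was chosen by its measured difference between the diets, the ratio of group means and the authors' fold change and p, so its diet values are given as a description, without a test. Avpr1a was not among the 33 rows held of the second table, and its level after PCN was therefore not analysed here. The V1a receptor is a G protein-coupled receptor on the cell surface. Through the Gq class of G proteins it activates phospholipase C, which releases inositol trisphosphate and so calcium from intracellular stores. In the liver it is carried by hepatocytes, where vasopressin is known to activate glycogen phosphorylase and glucose output.

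The 12 mice of the series were of the C57BL/6N strain and all were PXR deficient, that is, they lacked the pregnane X receptor, a nuclear receptor that senses foreign compounds. No group with the receptor was analysed here, so nothing below separates an effect of diet from one that needs this deficiency. Feeding started at 6 weeks of age and lasted 18 weeks, on regular chow (3 mice) or on a high-fat diet, HFD (9 mice). The comparison used here is of the 3 chow mice, numbered 670, 695 and 707, with the 3 HFD mice that received no injection, numbered 659, 669 and 696. The remaining HFD mice were injected once a day for 4 days with vehicle holding 30% DMSO (3 mice) or with 50 mg/kg of the PXR ligand PCN (3 mice), and no table used here sets them beside the uninjected ones. The labels give no sex and no time of day at which the livers were taken. RNA was read from whole liver, so fewer cells of a type and less RNA per cell cannot be told apart.

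The deposited table lists only genes that passed the authors' own selection, 215 higher and 121 lower on HFD, each with an adjusted p of at most 0.0474. The library totals are therefore unknown. The smallest absolute deposited log2 fold change among the listed genes was 0.6. A gene that is not listed therefore need not have had an adjusted p above 0.05. Summed over the listed genes, the counts ran from 547431 to 920106 per mouse. Of 18 hepatocyte markers none was among the rows held, so the tissue label could not be checked with them. Nr1i2, the gene of the missing receptor, was not analysed here.

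In GRCm38 the gene lies on chromosome 10, plus strand, from 122448499 to 122453452. GENCODE M21 gives it 1 transcript of 2 exons that together hold 2670 bases. The coding sequence begins in exon 1 at 122448805 and ends in exon 2 at 122452357. The antisense gene Gm48877, from 122405113 to 122546498 on the minus strand, spans the whole gene, but its exons cover 0 of the exonic bases of Avpr1a. Whether the authors' counting used strand is not given in the sources used here, so reads of the antisense primary transcript cannot be told apart from those of Avpr1a. Of 40 annotated genes within 1 Mb of Avpr1a, 11 of them protein coding, 1 was among the rows held. This was Rassf3, which encodes a Ras association domain protein and rose 1.68-fold on HFD, from 891 ± 32.8 to 1498 ± 92.6 normalized counts (SD, n = 3 each). It lies 972 kb from Avpr1a, near the edge of the window. Of all genes that the authors tested, 1.35% were listed, and most of those were higher on HFD. Nothing is therefore read from this neighbour or its direction.

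The 250 bases before the transcription start of Avpr1a are shown because 6 of the 8 listed genes whose values were most like those of Avpr1a, described further on, could be searched for the same motifs. They are RefSeq's, on GRCm38.p6, at chr10:122448249-122448498 on the plus strand, and the capitals mark a match to the TATA box letters TATAAA.

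Avpr1a promoter: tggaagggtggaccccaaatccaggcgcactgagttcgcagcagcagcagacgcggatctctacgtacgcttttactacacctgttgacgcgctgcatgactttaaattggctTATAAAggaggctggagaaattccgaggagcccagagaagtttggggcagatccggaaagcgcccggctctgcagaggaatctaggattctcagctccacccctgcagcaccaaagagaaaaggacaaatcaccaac

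The match lies from 137 to 132 bases before the annotated start, and whether it acts as a TATA box for that start was not tested. Each motif was searched on both strands of such windows, of which there were 32851 over all genes. The TATA box letters TATAAA were held by 12.4% of all windows, the E-box CACGTG, the element to which the clock protein BMAL1 binds with CLOCK, by 6.02%, and the nuclear receptor half-site AGGTCA by 14.02%. Avpr1a's window held neither of the last 2. Among the 6 similar genes with a window, Tuba8 alone held the E-box and the half-site, and none held the TATA box letters. Of the 84 lower genes with a window, 9 (10.7%) held the E-box, 13 (15.5%) the half-site and 10 (11.9%) the TATA box, against 6.86%, 15.8% and 14.3% of all genes with a window. These are matches of letters and say nothing of binding.

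Values below are normalized counts, that is, reads divided by each library's size factor as recovered from the authors' mean column. In the chow mice Avpr1a stood at 642 in mouse 670, 300.5 in mouse 695 and 319 in mouse 707. In the HFD mice it stood at 70.5 in mouse 659, 44.1 in mouse 669 and 44.8 in mouse 696. All 3 HFD mice lay below all 3 chow mice, and the lowest chow mouse was 4.26-fold above the highest HFD mouse. The raw reads behind these values were 657, 313 and 264 in chow mice 670, 695 and 707. They were 78, 41 and 51 in HFD mice 659, 669 and 696. In raw reads mouse 695 thus stood above mouse 707, and only after division by the size factors below it.

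**Figure D1:**
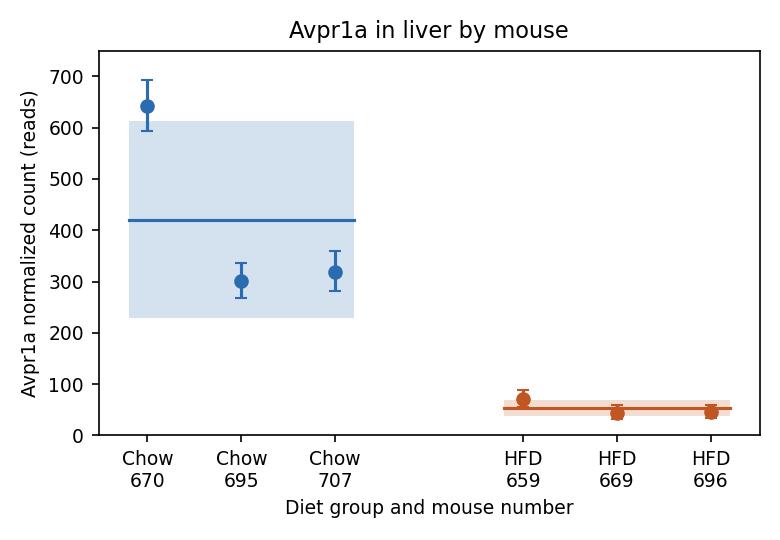
Normalized count of Avpr1a (y axis, reads) in each of the 3 chow and 3 HFD mice (x axis). Bars on the points are exact 95% Poisson intervals, lines and shaded bands are group means ± SD (n = 3); chow mouse 670 stands at 642, and the 3 HFD mice lie between 44.1 and 70.5.

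The group means were 420.3 ± 192 on chow and 53.16 ± 15.01 on HFD (SD, n = 3 each), a ratio of 0.126 or a level 7.91-fold lower. The authors' deposited table gives Avpr1a a log2 fold change of -2.22 (SE 0.25), a p of 3.5e-19 and an adjusted p of 1.46e-15. These deposited values, together with the ratio, are what chose the gene. An edgeR fit to the listed genes with the same size factors gave a log2 fold change of -2.98 (SE 0.35), near the log2 ratio of the means. With scaling by TMM over the listed genes the level on HFD was 12.4-fold lower than on chow. That scaling shifts the median log2 fold change of the listed genes, of which 215 are higher, by -0.64. Among the about 24980 genes that the authors tested, 1.35% were listed, 0.484% as lower and 0.861% as higher. Avpr1a is among the former by its choice, and nothing is read from that.

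Mouse 670 carried much of the chow spread. Its exact 95% Poisson interval, which covers counting error only, was 593.8 to 692.9, while those of mice 695 and 707 were 268.1 to 335.7 and 281.3 to 359.5 and overlapped. Mice 669 and 696 could not be separated by counting error either, at 31.7 to 59.9 and 33.4 to 59.0. The interval of mouse 659, 55.7 to 88.0, overlapped both at its lower end. Without mouse 670 the HFD level was 5.82-fold lower, and over the 6 ways of leaving out 1 mouse it ran from 5.82-fold to 9.45-fold lower.

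On the log2 scale the SD between mice was 0.61 on chow and 0.38 on HFD. The medians over all 336 listed genes were 0.32 and 0.26, and 82.4% and 72.6% of the genes varied less than Avpr1a in each group. The gene was thus among the more variable of the listed genes on chow. Tuba4a, which encodes an alpha-tubulin, shows the opposite case, at 1916, 2017 and 1949 in chow mice 670, 695 and 707 and at 871, 904 and 874 in HFD mice 659, 669 and 696. Its fall was 2.22-fold, and yet its deposited adjusted p of 2.66e-16 was the only one among the lower genes below that of Avpr1a.

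**Figure D2:**
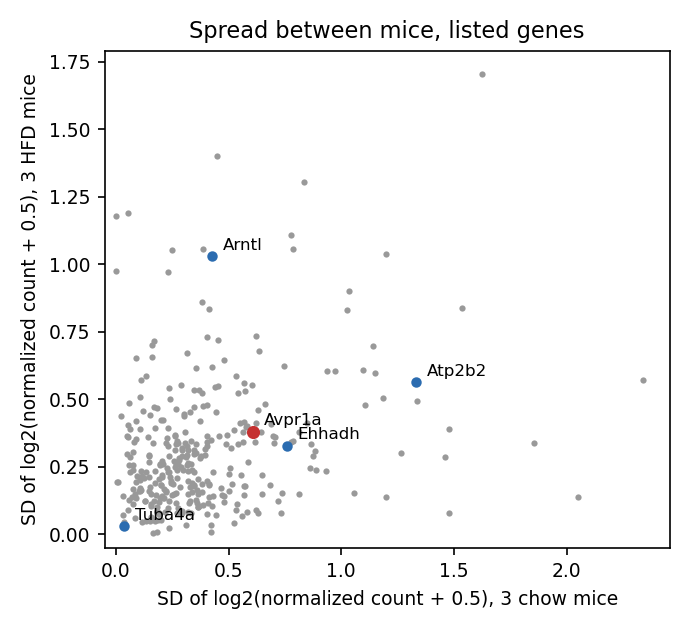
SD of log2(normalized count + 0.5) over the 3 chow mice (x axis) and the 3 HFD mice (y axis) for the 336 listed genes, 1 point per gene. Avpr1a (red) lies at 0.61 and 0.38, above the medians of 0.32 and 0.26, and Tuba4a lies near 0 on both axes.

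By the ratio of group means Avpr1a ranked 4 of the 121 lower genes and 21 of all 336 by absolute size. By the deposited log2 fold change, which is smaller in absolute size, it ranked first of the lower genes and 4 of all. By the deposited p it ranked 6 of the 336 listed genes. The number of genes tested was itself derived from such ranks, so no separate rank among all genes tested is read. The 3 genes with a larger fall in the ratio were Gm32540, a predicted gene (16.3-fold lower), Cib3, which encodes a calcium and integrin binding protein (10.4-fold lower), and Cspg5, which encodes a chondroitin sulfate proteoglycan (9.52-fold lower). Their deposited log2 fold changes were only -1.05, -1.08 and -1.47, against -2.22 for Avpr1a, so the first place of Avpr1a depends on the measure used. Their chow means were 36.7, 42.6 and 41.4 normalized counts, against 420.3 for Avpr1a. Cib3 shows how such low counts spread, with 56.7, 4.80 and 66.4 in chow mice 670, 695 and 707 and 3.61, 4.31 and 4.40 in HFD mice 659, 669 and 696.

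The genes next below Avpr1a in this order were the predicted genes Gm45792 (7.46-fold lower) and Gm15441 (from 119.9 to 23.97), the tubulin gene Tuba8 (4.93-fold), the somatostatin receptor gene Sstr2 (4.53-fold) and the clock gene Arntl (4.52-fold). Among the 70 lower genes with a chow mean at least that of Avpr1a, itself included, the next largest fall was 4.30-fold, in Ehhadh. The median of the lower genes was 1.99-fold. Every gene of this table with a larger fall than Avpr1a thus had far fewer reads.

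**Figure D3:**
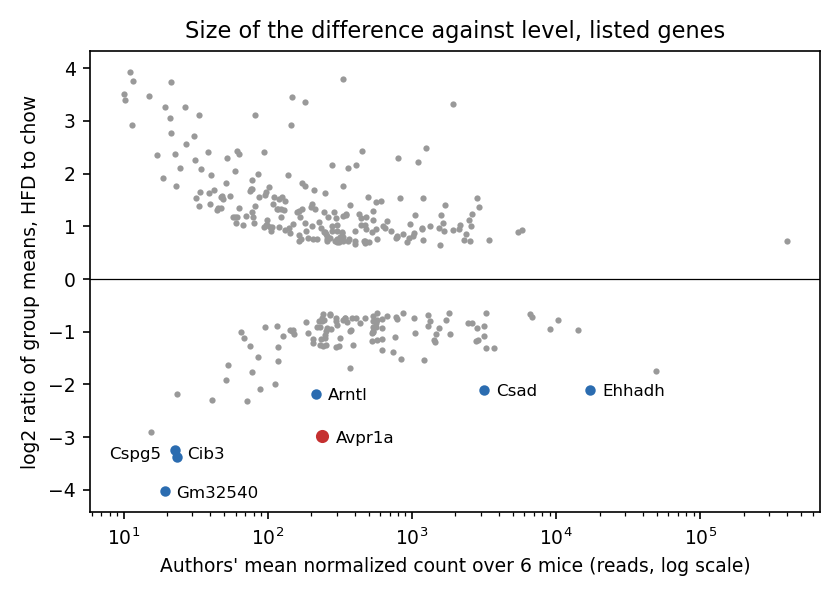
Log2 ratio of group means, HFD to chow (y axis), against the authors' mean normalized count over 6 mice (x axis, log scale), 1 point for each of the 334 listed genes with reads in both groups. Avpr1a (red) lies at -2.98, and the 3 points below it, Cspg5, Cib3 and Gm32540, have lower counts.

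Per kilobase of merged exons, Avpr1a had 157 normalized counts on chow and 19.9 on HFD. On this scale its level exceeded that of 73.5% of the listed genes in chow mice and of 19.9% in HFD mice. The median listed gene stood at 55.0 per kilobase on chow and at 66.5 on HFD. The receptor gene was above the middle of this list on chow and well below it on HFD. Both the gene and the list were chosen by the same diet difference, so nothing more is read from this.

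The listed genes that followed Avpr1a most closely were sought by the root mean square gap between profiles of log2(normalized count + 0.5) over the 6 mice, each centred on its own mean. Genes with a mean of at least 10 normalized counts and a name that is not a predicted one were ranked. Since all listed genes differ between the same 6 mice by selection, the gap is a description of likeness and no more. The nearest 8 were Tuba8 (gap 0.48 on the log2 scale), Ehhadh (0.50), Arntl (0.51), Cyp4a14 (0.65), Cyp4a31 (0.65), Med12l (0.69), Cadm4 (0.74) and Atp2b2 (0.74). Among the predicted genes left out, Gm15441 was closer still, at 0.41.

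The first group of these encodes enzymes of fatty acid oxidation. Ehhadh, the peroxisomal bifunctional enzyme, had 44152, 15463 and 24086 normalized counts in chow mice 670, 695 and 707 and 8174, 6070 and 5228 in HFD mice 659, 669 and 696. Cyp4a14, a fatty acid omega-hydroxylase, had 96462, 53670 and 77005 in the chow mice and 31258, 23314 and 13396 in the HFD mice. Cyp4a31, a member of the same P450 family, had 764, 475 and 467 on chow and 265, 169 and 95.8 on HFD. As in Avpr1a, mouse 670 was the highest chow mouse and mouse 659 the highest HFD mouse in all 3. Their falls, 4.30-fold, 3.34-fold and 3.22-fold, were smaller than that of Avpr1a. Reads of similar Cyp4a genes may be shared between them, which could not be checked.

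The remaining near genes have varied roles. Arntl, which encodes the clock activator BMAL1, had 481, 280.3 and 297 in the chow mice and 136.5, 32.3 and 65.1 in the HFD mice. Tuba8, an alpha-tubulin gene, had 87.0, 38.4 and 79.7 on chow and 18.1, 12.9 and 10.6 on HFD. Atp2b2 encodes a plasma membrane pump that removes calcium from the cell, and had 301, 50.9 and 78.4 on chow and 50.6, 24.8 and 26.4 on HFD. In Atp2b2 mouse 670 was 5.91-fold above mouse 695, against 2.14-fold in Avpr1a and 2.86-fold in Ehhadh, and chow mouse 695 lay only just above HFD mouse 659. Med12l, a gene for a Mediator subunit, and Cadm4, a cell adhesion gene, fell 3.39-fold and 3.75-fold and did not share the high value of mouse 670. Med12l had 118, 117 and 125.5 in the chow mice, and Cadm4 was highest in chow mouse 695, at 99.8.

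**Figure D4:**
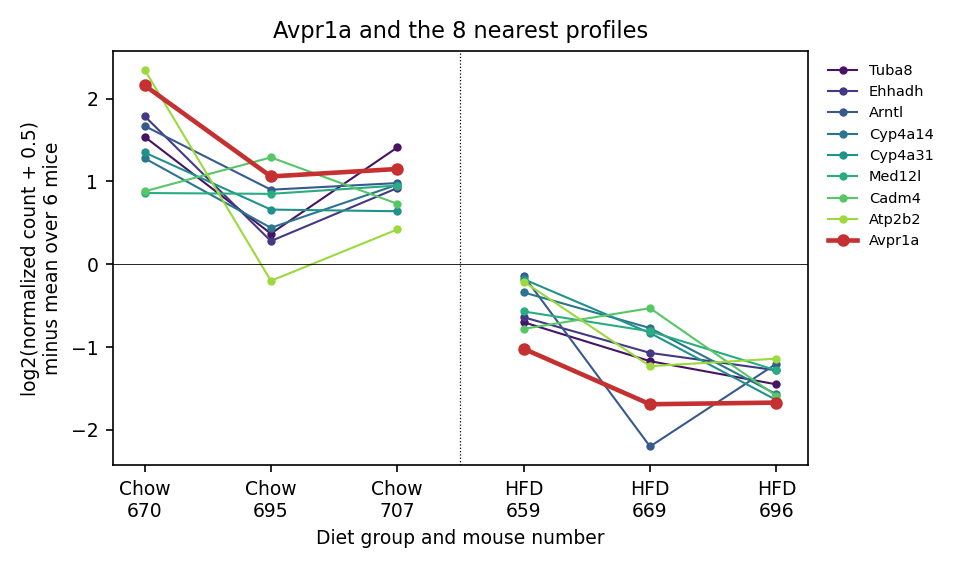
log2(normalized count + 0.5) minus each gene's mean over 6 mice (y axis) in each mouse (x axis) for Avpr1a (red) and the 8 nearest genes; lines join the mice of a group and carry no order. Avpr1a runs from 2.16 in chow mouse 670 to -1.69 in HFD mouse 669, and mouse 670 is the highest chow mouse for 6 of the 8 genes.

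This likeness rests on the size of the fall and in part on mouse 670. Leaving out 1 mouse kept between 5 and 7 of the 8, and the 5 was without mouse 670, when Csad, a taurine synthesis gene that fell 4.30-fold, became the nearest. When profiles were divided by their own SD, so that size no longer counted, 0 of the 8 remained. The nearest were then Chd4, Wrnip1, Chsy3, Stard13, Tab2, Hsf2, Gtf2ird1 and Asap2.

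The order of the mice within each diet group does not use the difference between the groups. In Avpr1a it was 670, 707, 695 from the highest on chow and 659, 696, 669 on HFD, with 695 and 707, and 669 and 696, within counting error of each other. In the same order stood 16 other lower genes and 10 higher ones, so that 27 of the 336 listed genes with Avpr1a shared it. The 36 possible orders held from 3 to 27 genes each, with a median of 8, and none held more than this one. The reverse order was held by 10 higher and 7 lower genes. Mouse 670 was the highest chow mouse in 47.5% of the 120 other lower genes and in 28.4% of the higher ones, and mouse 659 the highest HFD mouse in 55.8% and 44.7%. All genes of a mouse come from the same library and are not independent, and the part of library differences in these orders was not tested.

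Of the genes in the same or the reverse order, those with the smallest deposited adjusted p included Tuba4a, Gstp-ps, Gstp1 and Per2 in the reverse order and Wrnip1, Tmed5 and Gtf2ird1 in the same order. In Tuba4a the SD on the log2 scale was only 0.04 on chow and 0.03 on HFD, so little can be read from its order. Wrnip1, which encodes a partner of the Werner helicase, had 1172, 975.3 and 996 in chow mice 670, 695 and 707 and 554, 454 and 460 in HFD mice 659, 669 and 696. Its values in mice 695 and 707 lay close together, as did those in mice 669 and 696. Tmed5, a gene of vesicle trafficking between the endoplasmic reticulum and the Golgi, fell 2.05-fold, and Gtf2ird1, a transcription factor gene, fell 1.96-fold. Gstp1, a glutathione transferase gene, had 3864, 5218 and 4957 on chow and 1570, 2115 and 2003 on HFD, so that mice 670 and 659 were its lowest. Reads may be shared with its pseudogene Gstp-ps, which could not be checked.

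Clock genes stood on both sides. Of 22 on the list, 3 were among the rows held, with Per2 higher and Arntl and Nfil3 lower, where 0.861% of all tested genes were listed as higher and 0.484% as lower. Per2, a repressor of the clock, had 173, 311 and 273 in chow mice 670, 695 and 707 and 704, 779 and 741 in HFD mice 659, 669 and 696. It was lowest in mice 670 and 659, the mice in which Avpr1a and Arntl were highest. Its HFD mice lay close together, however, with an SD on the log2 scale of 0.07, against 0.44 on chow. Little can thus be read from the order of its HFD mice. Nfil3, a repressor with a daily rhythm, had 641, 640 and 363 on chow and 256, 212 and 219 on HFD, with chow mice 670 and 695 level and mouse 659 the highest on HFD. The part of the clock in the level of Avpr1a was not tested.

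**Figure D5:**
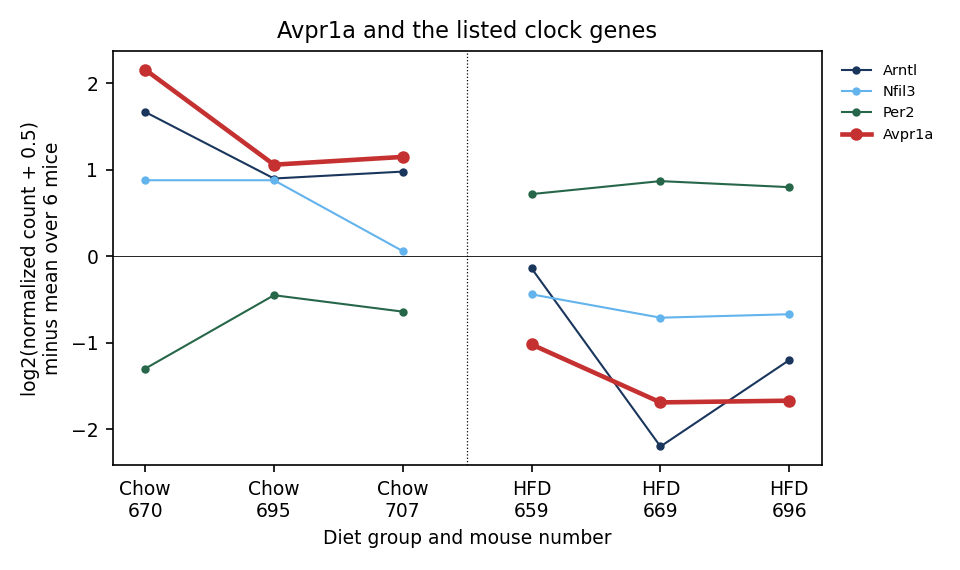
log2(normalized count + 0.5) minus each gene's mean over 6 mice (y axis) in each mouse (x axis) for Avpr1a (red) and 3 listed clock genes; lines join the mice of a group and carry no order. Arntl lies on the side of Avpr1a in each mouse, at 1.67 in chow mouse 670 and -2.20 in HFD mouse 669, while Per2 lies at 0.87 in the latter.

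Little of the receptor's own pathway was among the rows held. Of 7 genes of the vasopressin and oxytocin system, Avpr1a was the only one. Of 33 genes of the Gq and phospholipase C pathway, none was listed, so these were not analysed here. Of 33 genes of calcium release and uptake, 1 fell, Atp2b2. Of 36 genes for other hormone receptors of the hepatocyte, 1 fell, S1pr1, which encodes a receptor for sphingosine-1-phosphate and which endothelial cells carry too. It had 1332, 1316 and 1230 in chow mice 670, 695 and 707 and 629, 934 and 755 in HFD mice 659, 669 and 696, a fall of 1.67-fold. Of 25 genes of glycogen breakdown and glucose output, 1 rose, the glucose transporter gene Slc2a2, which had 2436, 5352 and 3703 on chow and 7950, 6518 and 6918 on HFD. Its lowest chow value was in mouse 670. Over all genes tested 0.484% were listed as lower and 0.861% as higher, and nothing more is read from single genes of a list.

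The lists of liver zones moved in both directions. Of 38 pericentral hepatocyte genes, those near the central vein, 3 rose (Gstm3, Lect2 and Slc13a3) and 2 fell (Csad and Cyp1a2). Of 30 periportal genes 1 rose (Aldh1b1) and 1 fell (Cdh1). Cyp1a2, a drug-metabolizing P450 gene, was lowest in the chow mouse in which Avpr1a was highest, with 2748 in mouse 670, 6141 in mouse 695 and 3925 in mouse 707, and had 1505, 2622 and 1928 in HFD mice 659, 669 and 696. Of 36 male-biased liver genes 4 fell and none listed rose, and of 32 female-biased genes 7 rose and 1, Cyp4a14, fell. Over all genes tested, 0.861% were listed as higher and 0.484% as lower.

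A few markers of other cell types were among the listed genes, all of them higher on HFD. Of 19 stellate cell and fibroblast markers 4 rose, and their summed level was 633 to 732 in chow mice and 1671 to 3262 in HFD mice. Of 20 macrophage markers 2 rose, with sums of 12.5 to 25.3 and 71.2 to 119, and of 17 lymphocyte markers 1 rose, Themis, at 13.3 to 58.6 and 306 to 372. None of these was at 0 in any mouse. Each sum holds only the listed markers, all listed as higher on HFD. Its difference between the diets was thus fixed by that selection, and nothing is read from it. The share of all tested genes listed as higher was 0.861%. None of 15 endothelial, 9 cholangiocyte and 10 erythroid and platelet markers was among the rows held. The part of these cells in the level of Avpr1a was not tested.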

How the data were processed

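Liver RNA of 12 mice was counted, and the table of HFD against chow (6 mice) was used. The authors deposited raw read counts per gene and mouse for genes they had selected, beside their mean, log2 fold change, p and adjusted p, per the file headers. The submitters' processing notes name GRCm38 (mm10), HISAT2, HTSeq and DESeq2; their versions and the strand setting are not given in the sources used. Groups came from the sample titles, and each number in a title was taken as 1 mouse. Avpr1a and the gene lists were chosen with earlier results of these data known.

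Size factors were recovered by a least-squares solution of the authors' mean column (largest gap 0.0106 counts) and ran from 0.8286 to 1.1372. The number of genes tested, about 24980, came from the relation of p to adjusted p. "Rose" and "fell" mean listed by the authors with a deposited adjusted p under 0.05. The smallest absolute deposited log2 fold change listed was 0.6. Folds are ratios of group means. edgeR 4.0.16 (quasi-likelihood) and DESeq2 1.42.0 (R 4.3.3) were fitted to the listed genes only; edgeR was tested on simulated data. Exons were merged from GENCODE M21, which held all 336 genes, 322 with identical coordinates; tables were made in Python 3.11.15. Poisson intervals cover counting error only. Named were the 5 genes on either side of Avpr1a by ratio (3 exist above), the 8 nearest profiles, 8 genes sharing or reversing its order of mice, up to 4 members per list, and listed genes within 1 Mb; Chd4, Chsy3, Stard13, Tab2, Hsf2, Asap2, Slc13a3, Gm48877 and the receptor genes of the closing section were chosen after seeing values. Some list members the rule names are given as counts only, and some genes it names are not reported here.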

Additional observations from a re-analysis of the deposited data

How the results depend on the processing

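Under 11 alternatives the level of Avpr1a stayed lower on HFD, with a ratio of HFD to chow between 0.0804 (TMM) and 0.172 (without chow mouse 670). The rank by ratio became 1 by the deposited log2 fold change and 1 among genes with a mean of at least 50, and ran from 3 to 5 when 1 mouse was left out. Of the 8 nearest genes, 0 remained with profiles divided by their SD, and 5 to 7 remained when 1 mouse was left out. Counting lower genes in the order of Avpr1a and higher genes in the reverse order gave 26, and 43 to 63 when 1 mouse was left out, an alternative chosen after seeing the data in which fewer mice have to match. Of the listed members of all gene lists, 20 higher and 12 lower without Avpr1a, 4 higher and 0 lower passed in edgeR under the recovered size factors with adjustment for every gene tested (unadjusted, 12 lower were under 0.05, and 8 passed in a DESeq2 refit), and 13 higher and 12 lower passed in edgeR under TMM with adjustment within the table; the cause was not tested. No paired analysis was possible because no 2 groups share a mouse number. No alternative was run for Avpr1a after PCN, and the authors' calls could not be recomputed without single mice.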

Other observations

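Avpr1a was set beside the other listed genes whose description holds the word receptor, a choice made after the data were seen. Of the genes reported here 20 were such, Avpr1a among them, 11 higher and 9 lower on HFD by the authors' adjusted p. Of all 336 listed genes 215 were higher, and over all genes tested 0.861% were listed as higher and 0.484% as lower. The lower ones include Arntl, Nsd2 and Pnrc1, which encode proteins named for a receptor without being one. Nothing is read from these counts. Besides Avpr1a, the G protein-coupled receptors among the 20 were Sstr2 and S1pr1, both lower, and Ptgfr and Adgrv1, both higher. Ptgfr, the prostaglandin F receptor gene, whose product also acts through Gq, had 2.93, 9.60 and 3.62 normalized counts in chow mice 670, 695 and 707 and 76.8, 12.9 and 21.1 in HFD mice 659, 669 and 696. Its level on HFD rested largely on mouse 659, and its counts were far below those of Avpr1a. Sstr2, the somatostatin receptor gene, had 70.3, 19.2 and 25.3 on chow and 5.42, 12.9 and 7.03 on HFD, with mouse 670 the highest as in Avpr1a. Among the membrane receptor genes that rose at higher counts were Erbb4, a receptor for neuregulins, with 29.3, 156.5 and 62.8 on chow and 251, 288.5 and 302 on HFD, and Tlr5, the flagellin receptor gene, with 149.5, 241 and 212 on chow and 509, 436 and 437 on HFD. Both were lowest in chow mouse 670, as were Vldlr, Paqr7 and Robo2, which also rose. Ildr2 rose too but was highest in mouse 670, with 790, 573 and 542 in chow mice 670, 695 and 707. In Tnfrsf19, another gene that rose, mouse 670 lay between the other chow mice.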
